A study of Mus musculus with 20 samples.

Results

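The proteases that remodel the extracellular matrix and shed proteins from the cell surface, together with their tissue inhibitors and the plasminogen activators, were followed through 10 conditions of a mouse breast tumor progression model. Members were taken by name among the protein-coding genes: matrix metalloproteases (Mmp), tissue inhibitors of metalloproteases (Timp), ADAM and ADAMTS proteases, and the genes of urokinase (Plau), its receptor (Plaur) and tissue-type plasminogen activator (Plat). There were 81 members among 54986 genes listed: 22 MMPs, 4 TIMPs, 33 ADAMs, 19 ADAMTSs and the 3 genes of plasminogen activation.

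RNA-Seq was run on 2 libraries per condition of NMuMG, an epithelial line from the normal mouse mammary gland, and lines made from it. All were grown in serum-containing medium. The tumor progression lines were untreated wild-type NMuMG, wild-type NMuMG treated with TGFβ (4 d), NMuMG silenced by shRNA for hnRNP E1, the RNA-binding protein encoded by Pcbp1 (E1KD), and cells recovered from the primary tumor (M1P) or from the lung metastases (L1P) that E1KD cells formed in NOD/SCID mice. M1P and L1P were put back in culture and carry a puromycin resistance gene for selection, and the labels do not say from how many tumors or mice they came. The Platr18 lines were NMuMG with an empty overexpression vector (EV), 2 clones of NMuMG overexpressing the long noncoding RNA Platr18 (OE12 and OE16, each a line of its own), and E1KD cells given either a scrambled control shRNA (E1KD-SCR) or an shRNA to Platr18 (E1KD-P18KD). E1KD-SCR and E1KD-P18KD therefore share the silencing of hnRNP E1, and no library of the Platr18 lines came from untransduced NMuMG. Nothing in the labels says that the 2 libraries of a condition came from separate cultures. The p-values therefore rest on a spread between libraries that may be technical. For each gene that spread was pooled over all 10 conditions, tumor progression and Platr18 lines together, and not taken from the compared lines alone.

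Values are reads per 1000000 reads (CPM) as the authors deposited them, and a gene at 0 here had no read. The libraries fall into 2 kinds that coincide with the tumor progression lines and the Platr18 lines. The mitochondrial ribosomal RNA mt-Rnr2 had 333 to 492 CPM in the first kind and 113874 to 165149 CPM in the second, so each comparison was made within a kind. The smallest step in the values puts the depth at 50800000 to 60000000 reads in the first kind and 63000000 to 147000000 in the second, so that 3 reads were worth at most 0.0591 CPM and 0.0477 CPM. Pcbp1 had 287 and 312 CPM in NMuMG, 14.2 to 30.5 CPM in E1KD, M1P and L1P, 32.3 and 32.3 CPM in EV, and 2.92 to 3.46 CPM in E1KD-SCR and E1KD-P18KD. Platr18 (listed as Lncenc1) had 3.69 and 3.06 CPM in EV, 3092 and 3096 CPM in OE12, 813 and 820 CPM in OE16, 2.92 and 3.10 CPM in E1KD-SCR, and 0.136 and 0.170 CPM in E1KD-P18KD. Replicate 1 of E1KD stood apart from replicate 2, with a summed CPM of 729000 against 567000, so the calls that rest on E1KD are also given without it. Of the epithelial markers, Cdh1, Ocln, Krt8 and Krt18 were above 1 CPM in every condition, while Epcam, a usual epithelial marker, had at most 0.0167 CPM in any library. Cldn4 reached a mean of 1 CPM only after TGFβ. The sum of 5 mesenchymal markers was 530 to 551 CPM in NMuMG, 1340 to 1550 after TGFβ and 1330 to 1810 in E1KD. It was 1420 to 1430 CPM in M1P and 1460 to 1470 in L1P. In the Platr18 lines it was 642 to 681 CPM in EV, 790 to 894 in OE12, 845 to 889 in OE16, 751 to 816 in E1KD-SCR and 507 to 517 in E1KD-P18KD.

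MMPs, ADAMs and ADAMTSs are zinc-dependent endopeptidases made as inactive precursors. Secreted MMPs such as the collagenases, gelatinases and stromelysins cut matrix proteins, and membrane-type MMPs do so at the cell surface, where MMP14 with TIMP2 also activates the precursor of MMP2. ADAMs mainly release the outer parts of membrane proteins such as growth factors, and ADAMTSs cut proteoglycans and procollagens in the matrix. TIMPs bind and block the active enzymes. Urokinase, bound to its receptor, turns plasminogen into plasmin, which cleaves fibrin and activates several MMP precursors. In mammary epithelium these enzymes are known for their part in ductal remodelling and in the invasion of tumor cells after an epithelial to mesenchymal transition (EMT).

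Of the 81 members, 32 reached 1 CPM in at least 2 of the 20 libraries and were tested: 11 MMPs, 2 TIMPs, 8 ADAMs, 8 ADAMTSs and the 3 plasminogen activation genes. Another 8 had no read in any library, and 41 had reads but stayed under that minimum. Tested members at 1 CPM or more in all 20 libraries numbered 15. For 5 members (Mmp2, Mmp9, Mmp12, Adamts14 and Adamts16) the minimum was reached in the libraries of 1 condition only, so that they could enter the test only by being high there, so no p-value is given for them, and counts that they change are also given without them. Plau reached the minimum only in lines silenced for hnRNP E1, Mmp24 and Adamts7 only in E1KD, M1P and L1P, and Adam11 only in M1P and L1P. No p-value is given for these genes against lines without the silencing, and the counts keep them. A member was called when its limma p was under 0.001 and its log2 fold change of CPM + 1 at least 1 in size, and adjusted p-values are Benjamini-Hochberg values of the limma fit over all 17106 genes tested. On this scale the fold change of a gene at low CPM comes out too small.

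Per kilobase of exon, the members differed in level by orders of magnitude within a line. In untreated NMuMG, Timp2 was the most abundant at 64.7 CPM per kb, followed by Plaur at 17.9, Adam9 at 10.3, Adam10 at 7.91, Mmp14 at 4.78 and Adam17 at 4.18 CPM per kb. Adam10 and Adam17 encode the main sheddases of Notch and of TNF. Of the secreted MMPs, Mmp28 had 2.66, Mmp11 2.37 and Mmp13 2.21 CPM per kb, while Mmp9 had 0.00250 and Mmp2 and Mmp12 had no read. Plau, at 0.00398 CPM per kb, was far below its receptor. In TGFβ-treated cells Timp2 stood at 157 CPM per kb, and Mmp14, at 20.8 CPM per kb, passed Adam10 (14.2), Plaur (13.9) and Adam9 (13.0). In EV the order began with Timp2 (42.3 CPM per kb), Plaur (27.5), Adam9 (21.1), Timp1 (17.9) and Mmp13 (8.14).

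TGFβ raised MMPs of several classes together with both tested TIMPs and 3 ADAMTSs, and lowered Mmp28, Adamts15 and Adam23. Against untreated NMuMG, 16 of the 32 tested members were called, 13 higher and 3 lower, where 13.5% of all tested genes were called, 5.85% higher and 7.66% lower. In bulk libraries, fewer cells making a transcript and less of it per cell cannot be told apart. Without the 5 members that passed through a single condition, 13 of 27 were called, 10 higher and 3 lower. The median log2 fold change was 0.59 over the 32 members, 0.36 over the 27, and -0.08 over all tested genes. By family, 7 of 11 MMPs rose and 1 fell, 2 of 2 TIMPs rose, 3 of 8 ADAMTSs rose and 1 fell, and 1 of 8 ADAMs rose and 1 fell. Without the single-condition members 5 of 8 MMPs and 2 of 6 ADAMTSs rose. In a fit of the tumor progression libraries alone Timp1, Mmp11 and Adam15 missed the limit on p, at limma adjusted p-values of 0.00406, 0.0054 and 0.0115. None of the 3 plasminogen activation genes was called by limma, and 1 of them, Plaur, had an unadjusted p under 0.05, at a log2 fold change of -0.35.

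**Figure D1:**
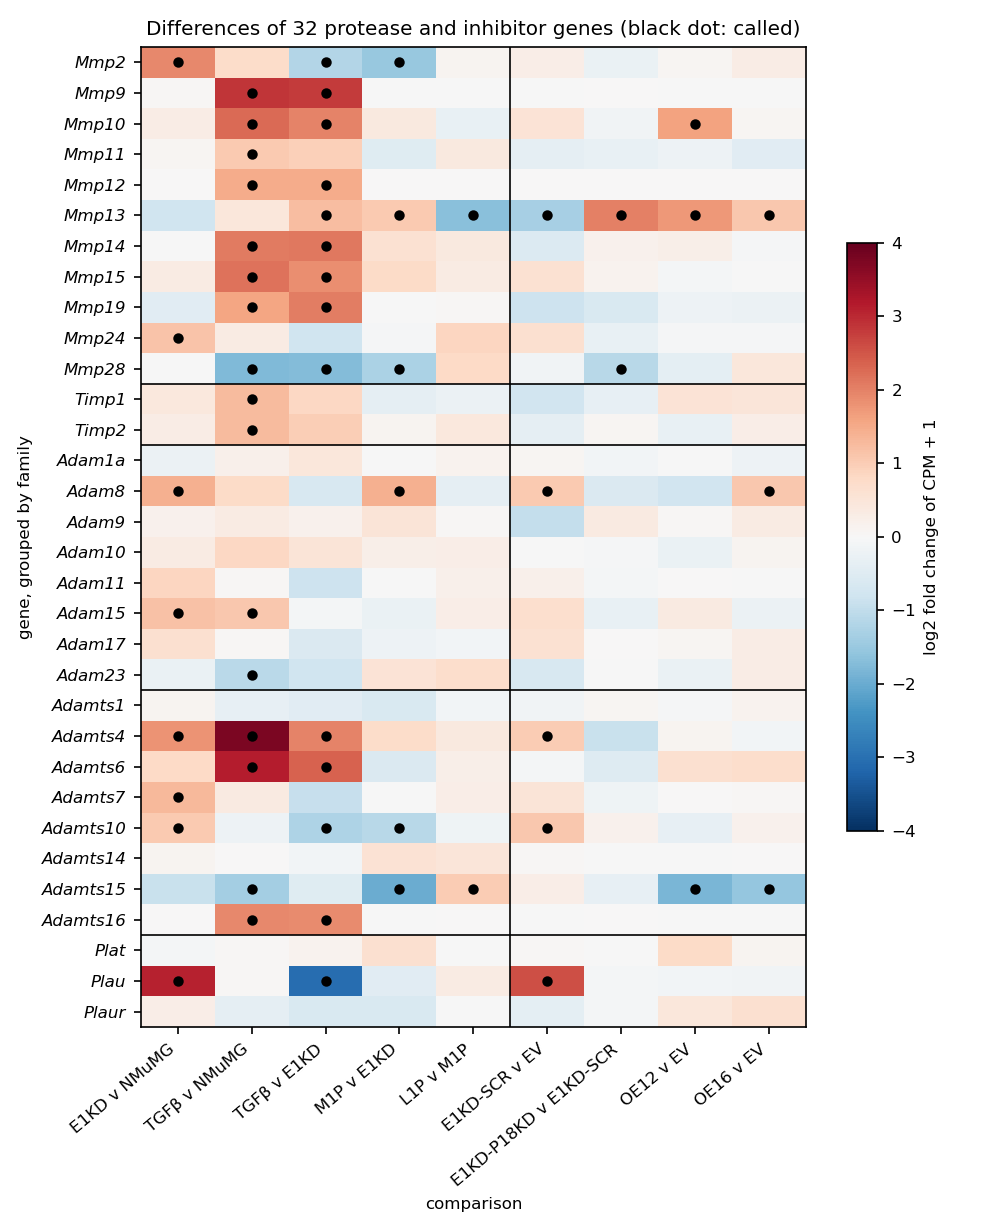
Log2 fold changes of CPM + 1 (color scale, red higher and blue lower in the first-named line) for the 32 tested members (rows, grouped by family) in 9 comparisons (columns; tumor progression lines left of the vertical line, Platr18 lines right of it). Black dots mark called differences, of which the TGFβ column against NMuMG holds 16 and the L1P column against M1P holds 2.

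Among the gelatinases, Mmp9, which cuts denatured and basement membrane collagens, had 0.0177 and 0 CPM in NMuMG and 5.73 and 6.88 CPM after TGFβ. It had at most 0.0591 CPM in the other 16 libraries, so the TGFβ libraries alone held it at a level that could be tested. The NMuMG libraries held 1 read between them, which gives a ratio of means of 712 with an exact 95% counting interval of 124 to 27300, for counting error only. Its log2 fold change was 2.85. Mmp12, the macrophage elastase, had no read in NMuMG, E1KD, M1P or L1P and 1.82 and 1.83 CPM after TGFβ, at least 33.3-fold higher than 3 reads per NMuMG library. The stromelysin Mmp10 had 0.0354 and 0 CPM in NMuMG and 4.21 and 3.67 CPM after TGFβ, with a log2 fold change of 2.28 (SE 0.128, adjusted p = 1.54e-09).

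Of the tested membrane-type MMPs, Mmp14 and Mmp15 rose, from higher starting levels than Mmp9, Mmp10 and Mmp12. Mmp24 had a log2 fold change of 0.33 and was not called. Mmp14 went from 27.7 and 29.3 CPM in NMuMG to 118 and 130.0 CPM after TGFβ, a 4.35-fold difference of the means with no overlap (log2 fold change 2.08, SE 0.121, adjusted p = 2.13e-09). Mmp15, a second membrane-type MMP, went from 0.549 and 0.660 CPM to 6.08 and 6.46 CPM, a 10.4-fold difference. Mmp19, which cuts basement membrane components, went from 1.81 and 1.49 CPM to 6.70 and 7.27 CPM. Mmp11, the stromelysin-3 gene, had 7.11 and 6.05 CPM before and 13.7 and 15.3 CPM after treatment, and its log2 fold change of 1.03 was near the limit: it was 0.93 without NMuMG replicate 2 and 0.95 without TGFβ replicate 2. Mmp28, an MMP of resting epithelia, moved the other way, from 10.7 and 9.89 CPM to 2.43 and 2.17 CPM (log2 fold change -1.77, SE 0.139, adjusted p = 5.82e-08). Mmp13, the collagenase-3 gene, had 5.58 and 6.24 CPM in NMuMG and 8.45 and 8.35 CPM after TGFβ and was not called.

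Both tested inhibitors rose with the enzymes. Timp2, which binds MMP14, had 253 and 251 CPM in NMuMG and 604 and 622 CPM after TGFβ (log2 fold change 1.28, SE 0.0654, adjusted p = 5.06e-10). Timp1 had 2.30 and 2.19 CPM before and 5.78 and 7.81 CPM after. In each library, the ratio of Mmp14 to Timp2 in CPM was 0.109 and 0.117 in NMuMG and 0.195 and 0.209 after TGFβ, so the transcript of the enzyme rose by more than that of its inhibitor. The ratio lay between 0.0816 and 0.131 in E1KD, M1P and L1P.

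Of the ADAMTSs, Adamts4, an aggrecanase, had 0.283 and 0.170 CPM in NMuMG and 15.5 and 15.9 CPM after TGFβ, a 69.3-fold difference of the means (log2 fold change 3.77, SE 0.0959, adjusted p = 2.54e-13). Adamts6 went from 2.97 and 2.90 CPM to 33.8 and 33.3 CPM (log2 fold change 3.13, SE 0.102, adjusted p = 4.04e-12). Adamts16 had no read in NMuMG and 2.77 and 2.80 CPM after TGFβ, at least 50.8-fold higher than 3 reads per NMuMG library. Adamts15, a protease of versican and aggrecan, fell from 11.7 and 11.6 CPM to 4.04 and 3.77 CPM (log2 fold change -1.37, SE 0.0846, adjusted p = 4.05e-09). Among the ADAMs, Adam15 had 10.5 and 10.4 CPM before and 20.6 and 26.4 CPM after (log2 fold change 1.09, and 0.92 without TGFβ replicate 2). Adam23, which lacks a working protease site and acts in adhesion, fell from 3.49 and 3.02 CPM to 1.00 and 1.03 CPM (log2 fold change -1.07, and -0.99 without NMuMG replicate 1). Adam10 had 38.1 and 39.6 CPM before and 67.8 and 72.1 CPM after, without overlap, at a log2 fold change of 0.83 that stayed under the limit. For Adam17 the values were 29.6 and 30.2 CPM against 29.6 and 32.8 CPM.

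**Figure D2:**
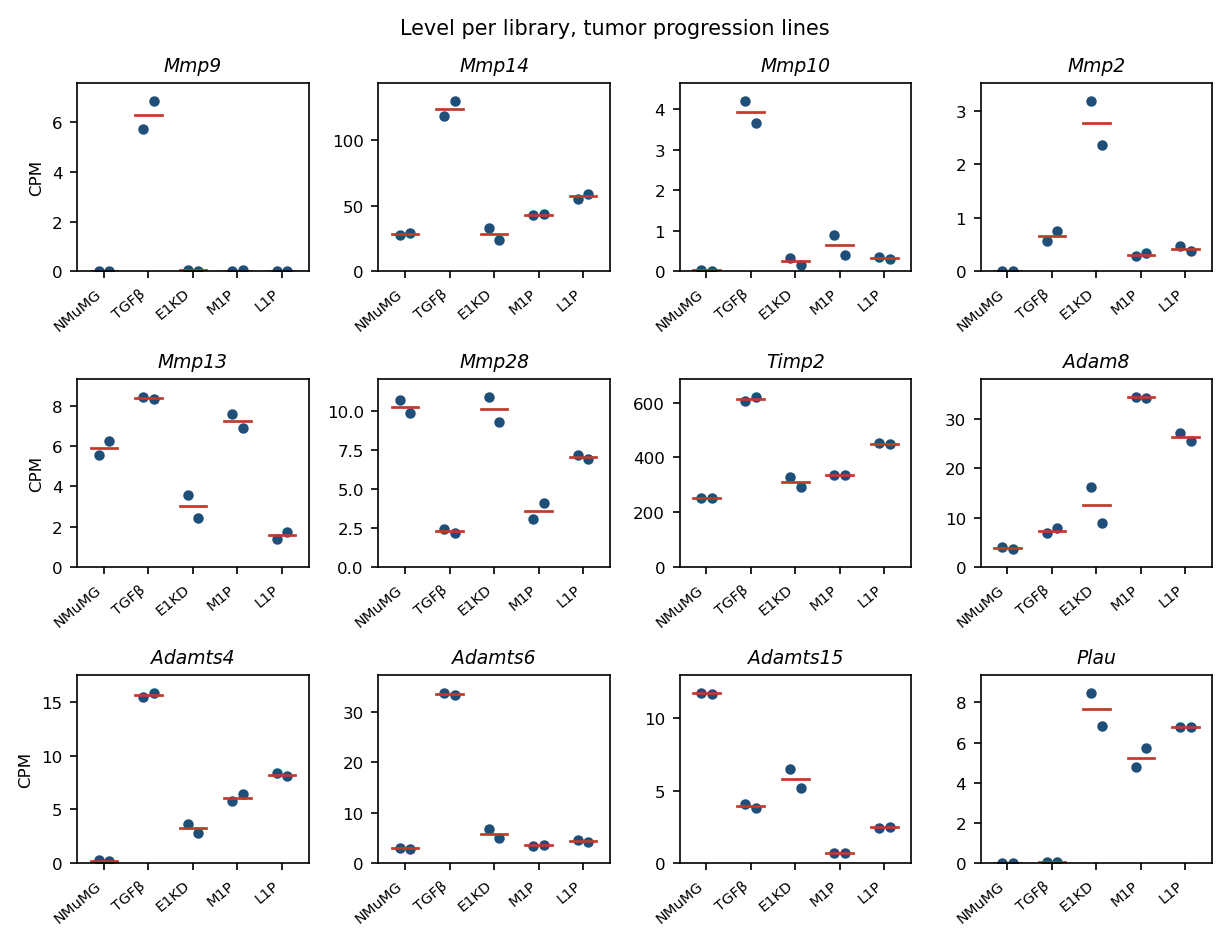
CPM per library (dots, 2 per line; linear axes from 0, one scale per gene) and their mean (red bar) for 12 members in the 5 tumor progression lines, NMuMG without and with TGFβ first. Mmp9, Mmp10, Mmp14, Adamts4 and Adamts6 were highest after TGFβ, while Plau was at 4.77 to 8.48 CPM in E1KD, M1P and L1P and at most 0.0501 CPM in NMuMG with or without TGFβ.

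Some of the genes raised by TGFβ are also used by leukocytes and fibroblasts. The summed level of 6 leukocyte markers was 2.74 and 2.90 CPM in NMuMG and 6.52 and 7.30 CPM after TGFβ, of which Csf1r had 4.45 and 4.76 CPM and Cd68 1.94 and 2.35 CPM. The defining leukocyte gene Ptprc had 0.0334 and 0.0167 CPM after TGFβ, and the macrophage gene Adgre1 had no read. The sum of 4 fibroblast markers went from 0.637 to 0.830 CPM in NMuMG to 31.2 to 39.3 CPM, with Col1a1, a collagen gene, at 30.1 and 38.4 CPM and the other 3 markers under 1 CPM. Their part in these differences was not tested.

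hnRNP E1 silencing raised urokinase, Mmp2, Mmp24 and 5 ADAMs and ADAMTSs, of which Adamts4 and Adam15 were also called higher after TGFβ. Between E1KD and NMuMG, 8 of 32 tested members were called, all of them higher in E1KD, where 9.44% of all tested genes were called, 6.44% higher and 2.99% lower, and 18% without E1KD replicate 2. Without the members that passed through a single condition, 7 of 27 were called. Among them were Plau, Mmp24 and Adamts7, which reached the minimum only in lines silenced for hnRNP E1. The median of all tested genes was itself shifted by 0.17 on the log2 scale in this comparison, and by 0.04 and 0.02 after rescaling to equal sums or with median-of-ratios factors, while the members' median was 0.28. With those rescalings 4.95% and 4.34% of all tested genes were called higher, and 4.06% and 4.13% lower. The members called were then 7 higher and 1 lower, and 6 higher and 1 lower. The one lower was Adamts15, at -1.08 and -1.09 against -0.90 in the values as deposited, and it was also called without E1KD replicate 1, at -1.04.

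Plau, the urokinase gene, showed the clearest switch. Its CPM were 0 and 0.0189 in NMuMG, 8.48 and 6.82 after hnRNP E1 silencing, 4.77 and 5.72 in M1P, and 6.77 and 6.78 in L1P. NMuMG thus held 1 read in all, for a ratio of means of 812 with an exact 95% counting interval of 149 to 33000. The log2 fold change of E1KD over NMuMG was 3.09 (SE 0.0863), and 2.95 without E1KD replicate 1. Plau could enter the test only by being high in lines silenced for hnRNP E1. After TGFβ it had at most 0.0501 CPM, and the difference between TGFβ-treated cells and E1KD was -3.04 (SE 0.0863). The partners of urokinase did not switch with it. Plaur had 46.4 and 47.3 CPM in NMuMG against 72.0 and 44.6 CPM in E1KD, which overlap, and Plat, the other plasminogen activator, had 15.7 and 15.7 CPM against 18.2 and 11.9 CPM. Plat had more reads than Plau in E1KD, with a Plau to Plat ratio of 0.467 and 0.575 in CPM. Per kilobase of exon the order was the reverse, with Plau at 3.23 and Plat at 2.4 CPM per kb. That order rests on merged exon lengths of 2367 bases for Plau and 6241 for Plat. The lengths of the transcripts made in these cells were not used.

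Of the MMPs, Mmp2, the gelatinase activated by MMP14, had no read in NMuMG, 3.19 and 2.37 CPM in E1KD, and less in the other progression lines: 0.568 and 0.750 CPM after TGFβ, and at most 0.471 CPM in M1P and L1P. E1KD was at least 50.6-fold above 3 reads per NMuMG library, with a log2 fold change of 1.91, and 1.75 without E1KD replicate 1. Mmp24, a membrane-type MMP best known from neurons, went from 0.272 and 0.177 CPM to 1.97 and 1.45 CPM, with a log2 fold change of 1.14 and 1.00 without E1KD replicate 1. Mmp14 had 33.0 and 23.7 CPM in E1KD, around the NMuMG values, and Mmp28 had 10.9 and 9.30 CPM, also around them.

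Among the adamalysins, Adamts4 rose from 0.283 and 0.170 CPM to 3.69 and 2.81 CPM (14.3-fold), and Adamts7 from 0.106 and 0.0566 CPM to 1.77 and 1.52 CPM (20.2-fold). Their log2 fold changes were 1.79 and 1.29, and 1.64 and 1.22 without E1KD replicate 1. Adam8, a sheddase also made by leukocytes, had 4.07 and 3.72 CPM in NMuMG against 16.2 and 8.98 CPM in E1KD, with a log2 fold change of 1.42 (SE 0.172, adjusted p = 7.89e-06) that was 1.03 without E1KD replicate 1. Adamts10 and Adam15 were called with both E1KD libraries (1.04 and 1.16) but not without E1KD replicate 1, at 0.78 and 0.76. Adam17 had 55.0 and 40.9 CPM in E1KD against 29.6 and 30.2 CPM in NMuMG, a log2 fold change of 0.65 (adjusted p = 9.25e-05), under the limit.

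Set directly against each other, TGFβ treatment and hnRNP E1 silencing differed in 14 of 32 tested members, 10 higher and 4 lower after TGFβ, where 23.3% of all tested genes were called, 6.17% higher and 17.2% lower. The median log2 fold change was 0.15 over the members and -0.26 over all tested genes, the latter -0.13 and -0.02 after rescaling to equal sums or with median-of-ratios factors. Without the members that passed through a single condition it was 10 of 27. The split was 13 and 2 with median-of-ratios factors, under which 10.3% of all tested genes were higher and 10.4% lower, and Adamts10 and Mmp2 fell short of the limit (-0.99 and -0.97). Without E1KD replicate 1, Mmp11, Timp1 and Timp2 passed the limit on size at 1.23, 1.18 and 1.07. Adamts10 fell short at -0.99, and Plau and Mmp2 were at -2.90 and -1.02. Mmp9 (2.81), Adamts6 (2.35), Mmp14 (2.11), Mmp19 (2.04), Mmp10 (1.99) and Adamts4 (1.98) were higher after TGFβ on the log2 scale, and Plau (-3.04), Mmp28 (-1.75), Adamts10 (-1.25) and Mmp2 (-1.18) were lower. Mmp14 and Mmp28 were called in the TGFβ comparison and had log2 fold changes of -0.02 and -0.03 between E1KD and NMuMG, neither called.

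A second reading of hnRNP E1 silencing came from the Platr18 lines, where E1KD-SCR was compared with EV. These lines also differ in their vectors, which cannot be told apart from the silencing. Here 5 of 32 tested members were called, 4 higher and 1 lower, where 5.98% of all tested genes were called, 2.91% higher and 3.07% lower. Plau had 0.0959 and 0.0869 CPM in EV and 5.70 and 5.43 CPM in E1KD-SCR, a 60.9-fold difference of the means (log2 fold change 2.59, SE 0.0863). Adamts4 (0.0959 and 0.217 against 1.25 and 1.46 CPM), Adam8 (3.71 and 4.06 against 8.62 and 9.59 CPM) and Adamts10 (1.96 and 2.01 against 4.86 and 5.72 CPM) were also higher, by 1.03, 1.05 and 1.07 on the log2 scale. These 4 were called higher in both readings, and no member was called in opposite directions. The share of all tested genes called in both readings was not counted, so the overlap has no background. Plau could enter the test only through lines silenced for hnRNP E1. In E1KD-SCR against EV, Adamts4, Adam8 and Adamts10 were near the limit. They were not called without E1KD-SCR replicate 2, whereas Plau and Mmp13 still were. Mmp13 was lower, with 19.9 and 23.6 CPM in EV and 8.31 and 7.62 CPM in E1KD-SCR (log2 fold change -1.34, SE 0.133, adjusted p = 1.49e-06). Between E1KD and NMuMG it had 3.58 and 2.46 against 5.58 and 6.24 CPM, a log2 fold change of -0.79 (adjusted p = 0.00016).

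The difference between both readings was tested as an interaction. It was called for 4 of 32 members, or 3 of 27 without the single-condition members, where 3.51% of all tested genes were called (10.4% without E1KD replicate 2) and the median of all genes was 0.17, or 0.007 and -0.002 after the rescalings. Mmp2 rose by 1.64 more between E1KD and NMuMG than between E1KD-SCR and EV, with 0.217 and 0.191 CPM in E1KD-SCR and no read in EV, and it was tested only because of its level in E1KD. Adamts15 differed by -1.18 (SE 0.12, adjusted p = 6.73e-06), with 11.7 and 11.6 CPM in NMuMG and 6.48 and 5.16 CPM in E1KD, but 2.74 and 2.55 CPM in EV and 3.41 and 3.40 CPM in E1KD-SCR. Timp1 (1.17) and Adam9 (1.12) were also called, but not without E1KD replicate 1, at 0.83 and 0.85, whereas Mmp2 and Adamts15 were at 1.48 and -1.32. Adam9 also fell short with both rescalings, at 0.91 and 0.91. Adam9 had 87.3 and 86.5 CPM in EV and 45.0 and 43.7 CPM in E1KD-SCR, and Timp1 had 14.9 and 16.9 against 9.06 and 8.90 CPM. The interaction sets kinds of library against each other, and what separates the kinds was not tested.

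**Figure D3:**
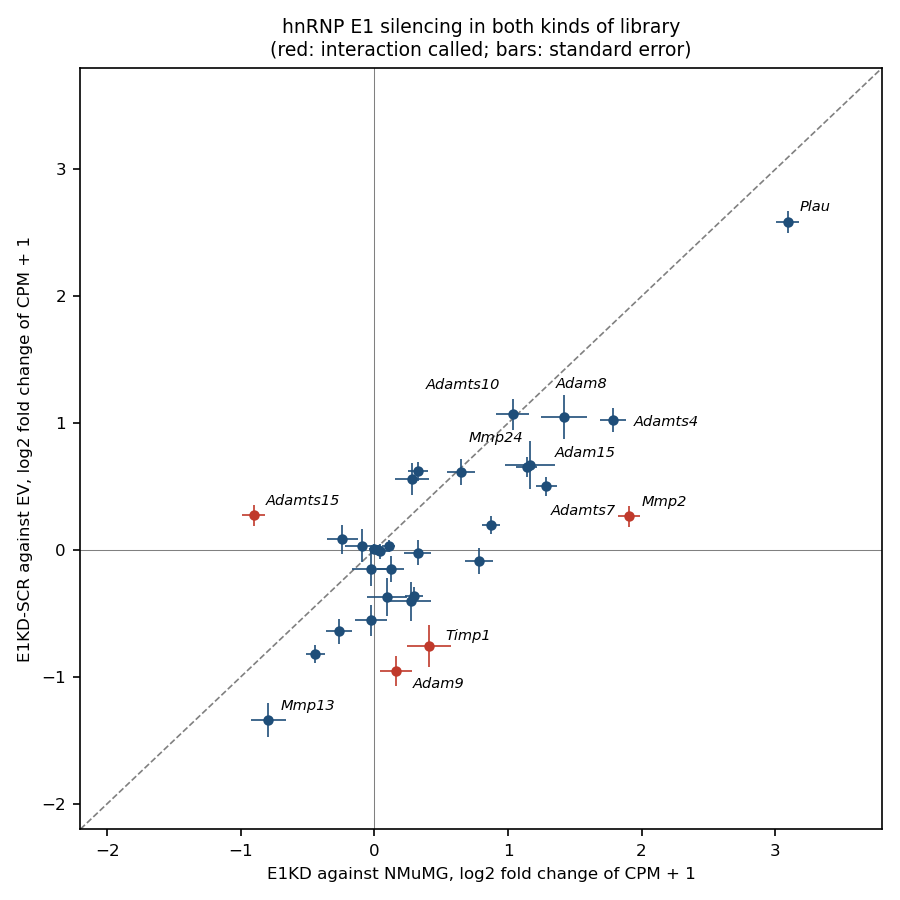
Log2 fold change of CPM + 1 between E1KD and NMuMG (horizontal axis) against that between E1KD-SCR and EV (vertical axis) for the 32 tested members, with standard errors as bars and the line of equal values dashed. Plau lies at 3.09 and 2.59, and the 4 members for which the interaction was called (Mmp2, Timp1, Adam9 and Adamts15) are red.

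The step from the injected line to the primary tumor line changed 6 of 32 tested members, 2 higher and 4 lower in M1P than in E1KD, where 3.59% of all tested genes were called, 1.16% higher and 2.43% lower, and 11.8% without E1KD replicate 2. Of the 27 members that did not pass through a single condition, 5 were called. With median-of-ratios factors 1.86% of all tested genes were higher and 1.74% lower. The median of all tested genes was -0.17, or -0.04 and -0.01 after the rescalings, and that of the members was -0.02. Adam8 rose to 34.5 and 34.3 CPM in M1P, 2.73-fold above E1KD and the highest level among the progression lines (log2 fold change 1.43, SE 0.172, adjusted p = 1.64e-05). Mmp13 went from 3.58 and 2.46 CPM to 7.58 and 6.88 CPM, a log2 fold change of 1.05 that was 0.84 without E1KD replicate 2 and 0.99 without M1P replicate 1. Adamts15 fell to 0.733 and 0.709 CPM, 8.07-fold below E1KD (log2 fold change -1.98, SE 0.0846, adjusted p = 2.65e-10). Mmp2 was lower by 1.52 on the log2 scale and Mmp28, at 3.08 and 4.14 CPM, by 1.28. Adamts10 was lower too (-1.10), but by 0.84 without E1KD replicate 1, which ends the call. Without that library Adam8, Adamts15, Mmp2 and Mmp28 were at 1.83, -1.84, -1.36 and -1.17 and were called. The Plau level of M1P was below that of E1KD by a log2 difference of 0.47 (adjusted p = 0.000665), under the limit.

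From the tumor line to the metastasis line, 2 of 32 tested members were called, where 1.21% of all tested genes were called. Mmp13 fell from 7.58 and 6.88 CPM in M1P to 1.41 and 1.75 CPM in L1P, a 4.57-fold difference (log2 fold change -1.67, SE 0.133, adjusted p = 7.45e-07), to the lowest level of the progression lines. Adamts15 went the other way, from 0.733 and 0.709 CPM to 2.41 and 2.51 CPM, with a log2 fold change of 1.01 (SE 0.0846, adjusted p = 1.41e-06) that was 0.97 with median-of-ratios factors. Several members without a call still differed without overlap. Among them were Mmp24 (1.60 and 1.65 against 3.59 and 3.89 CPM) and Adam23 (4.50 and 3.93 against 7.18 and 7.67 CPM). Timp2 (336 and 337 against 453 and 448 CPM) and Mmp14 (42.5 and 43.2 against 55.3 and 58.6 CPM) did so too. So few libraries per line often separate by chance, and how many of all tested genes did so was not counted. The same limit applies wherever an uncalled member is described as without overlap. Adamts14, a procollagen protease, had no read in NMuMG and at most 0.0984 CPM in E1KD, and its CPM were 0.628 and 0.567 in M1P against 1.37 and 1.15 in L1P.

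Measured from NMuMG, 8 of 32 members were called in M1P and 11 in L1P (10 of 27 without the single-condition members), where 9.39% and 11% of all tested genes were called. The counts keep Plau, Mmp24 and Adamts7, called in both lines, and Adam11, called in L1P. These genes reached the minimum only in lines silenced for hnRNP E1, which favors their calls against NMuMG. M1P, L1P and E1KD share the NMuMG libraries in these comparisons. Plau (2.62 and 2.94 on the log2 scale), Adamts4 (2.53 and 2.92) and Adam8 (2.85 and 2.48) were higher in M1P and L1P, and Adamts15 was lower (-2.88 and -1.87). The sum of 6 leukocyte markers was 5.66 to 7.13 CPM in M1P and L1P against 3.01 and 4.66 CPM in E1KD, with Lyz2 at 2.87 to 4.74 CPM. The markers did not move as one: between M1P and E1KD, Lyz2 was called higher and Csf1r lower. Ptprc had at most 0.0709 CPM and Adgre1 no read in M1P and L1P, and the part of other cells in these differences was not tested. The endothelial sum was at most 0.541 CPM, and the lung epithelial markers at most 0.0194 CPM in sum, in these lines.

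The chromosome 9 cluster of secreted MMPs holds 9 of the members between positions 7272514 and 7699586 (GRCm38), from Mmp13 to Mmp7. Of these, Mmp13, Mmp10 and Mmp12 were tested. Mmp13 alone had reads in all 20 libraries, and the other 6 had at most 0.505 CPM. After TGFβ, Mmp10 and Mmp12 were called higher, and Mmp13 was 1.42-fold higher without overlap and without a call. Between M1P and E1KD, Mmp13 was called higher, and Mmp10 was 2.65-fold higher without overlap and without a call, while Mmp12 had no read in either. Differences between genes of the cluster were not tested. Collagenase and stromelysin promoters are textbook targets of the AP-1 factors (Fos and Jun). The motif TGANTCA, which reads the same way on both strands apart from its middle base, was looked for in RefSeq promoters (GRCm38.p6, 250 bases before to 50 after the start). It was found for 7 of 9 genes of the cluster and for 6 of 40 other members with a window. For comparison, 8.97% of all genes with a promoter held it, and 7.81% of all 32851 promoters of that length. No window was at hand for 32 members, 13 of them tested. The sites of the 3 tested genes of the cluster, of the stromelysin Mmp3 and of Plaur are shown, as the results on the cluster and on the urokinase receptor turn on these genes, each with its site in capitals, on the strand of the gene.
Mmp13 (chr9:7272468-7272497, plus strand): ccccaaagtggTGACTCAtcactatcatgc
Mmp10 (chr9:7502268-7502297, plus strand): tagcacccatgTGAGTCAtgcttagtgacc
Mmp12 (chr9:7347319-7347348, plus strand): gacatcaacagTGAGTCAgatagaggattt
Mmp3 (chr9:7445765-7445794, plus strand): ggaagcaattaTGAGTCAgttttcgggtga
Plaur (chr7:24462403-24462432, plus strand): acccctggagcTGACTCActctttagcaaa

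These sites start 35, 63, 44, 46 and 69 bases before the RefSeq starts of Mmp13, Mmp10, Mmp12, Mmp3 and Plaur. The match is a description of the sequence, and the members that hold one did not share a pattern: Plaur was called in no comparison, Mmp12 was detected at more than 0.0419 CPM only after TGFβ, and Mmp13 changed in most.

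In the Platr18 lines, Mmp13 was called against either control, EV or E1KD-SCR. With both clones weighted equally against EV, 2 of 32 tested members were called, where 1.46% of all tested genes were called. Mmp13 rose from 19.9 and 23.6 CPM in EV to 75.9 and 71.8 CPM in OE12 and 46.1 and 47.6 CPM in OE16 (log2 fold change 1.40, SE 0.115, adjusted p = 6.53e-07). At 27.6 CPM per kb it was the third most abundant member in OE12, after Plaur (38.3) and Timp2 (34.7) and above Timp1 at 26.7 CPM per kb. Adamts15 fell from 2.74 and 2.55 CPM in EV to 0.0446 and 0 CPM in OE12 and 0.305 and 0.182 CPM in OE16 (log2 fold change -1.69, SE 0.0733, adjusted p = 8.29e-10). OE12 held 3 reads of it in all, a ratio of means of 119 with an exact 95% counting interval of 39.7 to 570, and OE16 was 10.9-fold below EV.

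The 2 clones differed from each other in 2 members, where 4.38% of all tested genes were called. Adam8 had 1.72 and 2.01 CPM in OE12 and 8.92 and 9.73 CPM in OE16, on either side of EV at 3.71 and 4.06 CPM (OE16 against OE12 1.85, SE 0.172, adjusted p = 1.04e-06). Mmp10 had 2.42 and 3.16 CPM in OE12 and 0.236 and 0.377 CPM in OE16, the latter around the EV values of 0.233 and 0.246 CPM (-1.53, SE 0.128, adjusted p = 3.65e-07). Against EV alone, 3 members were called in each clone, where 3.65% and 1.78% of all tested genes were: Mmp13 and Adamts15 in both, Mmp10 in OE12 and Adam8 in OE16. Mmp3, the neighbor of Mmp10 in the cluster, had 0.505 and 0.476 CPM in OE12 and at most 0.0947 CPM in every other library, under the minimum for a test.

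Silencing of Platr18 in E1KD cells changed 2 of 32 tested members, where 1.48% of all tested genes were called. Mmp13 rose from 8.31 and 7.62 CPM in E1KD-SCR to 31.9 and 39.3 CPM in E1KD-P18KD, a 4.47-fold difference (log2 fold change 2.02, SE 0.133, adjusted p = 8.30e-08). It was thus higher both in the clones with more Platr18 than EV and in the line with less Platr18 than E1KD-SCR. Mmp28 fell from 2.78 and 4.08 CPM to 1.04 and 0.988 CPM (log2 fold change -1.12, SE 0.139, adjusted p = 5.02e-05), with -0.91 and no call without E1KD-SCR replicate 2. Adamts4 had 1.25 and 1.46 CPM in E1KD-SCR and 0.217 and 0.300 CPM in E1KD-P18KD, near the 0.0959 and 0.217 CPM of EV, at a log2 fold change of -0.90 (adjusted p = 1.13e-05), under the limit. Plau stayed at 5.38 and 5.10 CPM against 5.70 and 5.43 CPM, a log2 fold change that was not called.

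**Figure D4:**
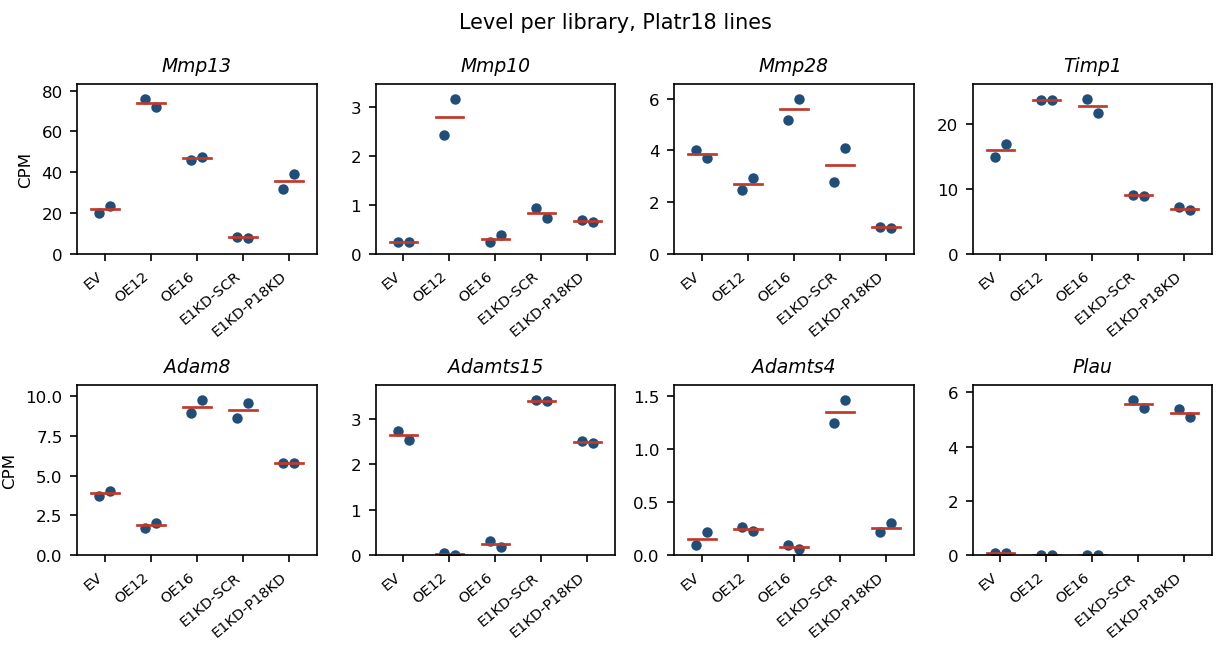
CPM per library (dots, 2 per line; linear axes from 0, one scale per gene) and their mean (red bar) for 8 members in EV, OE12, OE16, E1KD-SCR and E1KD-P18KD. Mmp13 was highest in OE12 (75.9 and 71.8 CPM), Adamts15 was at most 0.305 CPM in OE12 and OE16, and Plau was above 5 CPM in E1KD-SCR and E1KD-P18KD alone.

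Other genes of the protease system, 54 listed inhibitors, activators, partners and further proteases of which 32 were tested, moved with their own directions. In E1KD against NMuMG, 3 were higher and 9 lower, beside 6.44% and 2.99% of all tested genes, and after TGFβ 9 were higher and 8 lower, beside 5.85% and 7.66%. F2r, a receptor cut by thrombin and MMPs, went in opposite directions, by -4.60 in E1KD and 2.45 after TGFβ. Of the secreted or surface proteases outside the families, 4 of 6 tested rose after TGFβ: Bmp1, a procollagen protease (3.23), Ctsl (2.87), Ece1 (1.98) and Ctsb (1.46). Among 9 tested partners of ADAMs, Tspan15 and Tspan33, tetraspanins that bind ADAM10, were lower in E1KD (-1.13 and -1.89) and after TGFβ (-2.95 and -1.79). The ADAMTS-like genes Thsd4 and Papln were lower in both as well (-2.72 and -1.47 in E1KD, and -2.47 and -1.57 after TGFβ). Between M1P and E1KD 3 were higher and 3 lower (1.16% and 2.43% of all tested genes), and L1P against M1P, with 1.21% of all tested genes called, had 1 higher, Lrp1 (1.91), the receptor that clears protease and inhibitor complexes. In the clones against EV none of the 32 was called by limma, beside 1.46% of all tested genes. An unadjusted limma p under 0.05 was seen for 15, but the share of all tested genes under that p was not counted. After Platr18 silencing Plgrkt, a plasminogen receptor, was called (1.09), beside 1.48% of all tested genes. E1KD-SCR against EV had 3 lower, beside 3.07% of all tested genes: F2r, Spint2 and Adamtsl5.

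Several members share their locus with another gene, and how the authors' counting used the strand is not given in the sources used here. Of the tested members, 12 were overlapped by a gene at 1 CPM or more in any library. Adam8 is overlapped by AC107822.5, which was called in the same direction as Adam8 between E1KD and NMuMG (1.13), M1P and E1KD (1.66) and E1KD-SCR and EV (1.68), but not between the clones (0.92). AC107822.5 was also called higher in M1P and L1P against NMuMG, by 2.79 and 2.22, beside 2.85 and 2.48 for Adam8. Reads of these genes cannot be told apart without strand, and the same holds for Adam15 and its antisense gene RP23-137J12.1 after TGFβ (1.11), for Timp1 and Syn1 in the interaction (1.63 for Syn1), and for Mmp28 and RP23-249K18.3 between TGFβ and E1KD (-1.02 for the latter). The more abundant genes that overlap Mmp24 (RP23-388H13.4) and Adamts7 (Tbc1d2b) were called in none of the comparisons in which these members were.

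The 49 members that were not tested stayed low: 6 had a library at 0.5 CPM or more, and 35 had reads but less than that everywhere. Adam12, which cuts growth factor binding proteins and is made by mesenchymal cells, had 0.0177 and 0 CPM in NMuMG, 1.20 and 0.750 CPM after TGFβ and at most 0.197 CPM elsewhere. Adamts12 had no read in NMuMG and 0.768 and 0.866 CPM after TGFβ. Timp3, which binds to the matrix and also blocks ADAM17, had 0.250 and 0.367 CPM after TGFβ and at most 0.117 CPM elsewhere, and Timp4 at most 0.0501 CPM. Adam19 had at most 0.0434 CPM, Mmp7, the matrilysin gene, 1 read in 20 libraries, and Adamts5, the other main aggrecanase, at most 0.266 CPM.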

How the data were processed

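RNA from cultured lines was extracted with TRIzol and sequenced on an Illumina HiSeq2500 in 20 libraries, 2 for each of 10 conditions. The authors aligned the reads with Bowtie2 (version 2.2.5 in the submitters' processing notes) to GRCm38.p6, quantified genes of the M18 mouse annotation by expectation-maximization in Partek, and deposited CPM for each gene with 0.0001 added to every value. CPM sums were 548000 to 797000 per library. Values were whole multiples of 1 read, to within 0.05 of a read, for 90.1% to 91.4% of values in the tumor progression libraries and 97.1% to 97.7% in the others, so no count model was used. Depths and floors of 3 reads come from these steps, and intervals and floors cover counting error only.

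Groups came from the sample titles. Members were found by gene name. Values were taken to log2(CPM + 1), with genes at 1 CPM or more in at least 2 libraries kept, and modelled in limma 3.58.1 (R 4.3.3; lmFit, eBayes with trend), 10 condition means and 10 residual degrees of freedom. Calls needed an unadjusted p under 0.001 and a log2 fold change of at least 1 in size. The fit was tested on simulated data. An exact permutation test, 2 libraries against 2, cannot go below p = 0.333 for a single gene and was left out. Levels per kilobase divide the mean CPM by the merged exon length of each gene in GENCODE M21. Promoter sequences are those of RefSeq. Tables and figures used Python 3.11.15 with pandas 2.3.3.

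Genes named are members that were called, that reached a mean of 10 CPM in a condition or that hold a textbook role. The members, lists and rule were chosen with earlier results of these data known. The list of other genes of the protease system and the marker lists come from textbook knowledge. Alternatives were another pseudocount (0.1), no filter, rescaling to equal sums, median-of-ratios factors, libraries of 1 kind alone, adjusted p-values, each replicate left out, and the replicate number as a block. Replicate numbers come from the titles, and libraries with the same number did not deviate together. The proteins of the members were not analysed here.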

Additional observations from a re-analysis of the deposited data

Results flagged for a closer look

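The effect of hnRNP E1 silencing differed between the kinds of library, by an interaction term in limma, for 4 members. Mmp2 had a difference of 1.64 on the log2 scale, for which no p is given because it was tested only through its level in E1KD. Timp1 had a difference of 1.17 (SE 0.233, adjusted p = 0.00237), Adam9 of 1.12 (SE 0.167, adjusted p = 0.000245) and Adamts15 of -1.18 (SE 0.12, adjusted p = 6.73e-06). Timp1 and Adam9 missed the limit without E1KD replicate 1, at 0.83 and 0.85, and Adam9 also after either rescaling, at 0.91 and 0.91. The lines compared within each kind also differ in their vectors.

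The 2 Platr18 clones differed from each other, in the same fit, for Adam8 by 1.85 (SE 0.172, adjusted p = 1.04e-06) and for Mmp10 by -1.53 (SE 0.128, adjusted p = 3.65e-07), as OE16 against OE12. Adam8 lay below EV in OE12 and above it in OE16, in both libraries of each.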

How the results depend on the processing

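None of the called differences changed direction under the alternatives that were run, but some small ones that were not called did, such as Mmp11 and Adam9 between E1KD and NMuMG after either rescaling. With a pseudocount of 0.1, which gives more weight to low values, the number of members called was 4 for the clones against EV, 5 for OE16 against OE12, 5 for Platr18 silencing, 12 for E1KD-SCR against EV and 8 for the interaction, against 2, 2, 2, 5 and 4. The share of all tested genes called then rose too, to 3.6%, 7.96%, 3.7%, 9.98% and 5.75%. With median-of-ratios factors 1 member was called between L1P and M1P in place of 2. Leaving out each library in turn changed which members were called for L1P against M1P, Platr18 silencing, E1KD-SCR against EV and the interaction. In these comparisons fewer were called without replicate 2 of M1P, L1P or E1KD-SCR, or without replicate 1 of EV or E1KD. Without E1KD replicate 2, Adamts6 and Plaur were at 1.07 and 1.02 in the interaction. Adding a replicate block to the fit left the members called at 8, 16, 14, 6, 2, 2, 2, 2, 5 and 4, the same members as without it. The correlation of deviations of libraries with the same number lay between -0.395 and 0.287, so the numbers do not pair them. Crossing the numbers of E1KD or OE16, an alternative chosen after seeing the data, gave 14 members between TGFβ and E1KD and 2 between the clones and EV. At these depths 3 reads are worth up to 0.0591 CPM, so differences among members below that level were not detectable.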

Other observations

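Over the 10 libraries of the tumor progression lines, the genes whose log2(CPM + 1) followed that of Plau most closely were Fyn, a tyrosine kinase (Pearson r = 0.9994), Smoc1 (0.9986), Sarm1 (0.9985), Tead2 (0.9984) and Gjc1 (0.9973). Those closest to Mmp14 were Wipf1 (0.9955), Cdk18 (0.9955), Rasal2 (0.9941), Kremen1 (0.9897) and Gpm6b (0.9893). The points share libraries and lines, and for Plau they form a low and a high group.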
